A study of Mus musculus with 8 samples.

Results

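Striatal projection neurons that express the dopamine receptor gene Drd2 were examined in single nuclei of mouse brain hemispheres. Nuclei that the authors had annotated as neurons were chosen by their raw UMI counts (a UMI is a molecular tag that lets copies of 1 captured transcript be counted once). A nucleus was a member if it held at least 2 UMIs of Gad1 and Gad2 together, at most 1 of Slc17a7, at least 2 of Rgs9, at least 2 of Drd2 and 0 of Drd1. In all, 352 of 61949 nuclei met this rule, and they are called Drd2 neurons here. Nuclei selected on the mirror rule (at least 2 UMIs of Drd1 and 0 of Drd2) numbered 170 and are called Drd1 neurons. All animals were 6 months old and of the strain labelled C57BL6/J. WT animals carried neither change, and Cnp-/- animals lacked Cnp, which encodes a myelin enzyme of oligodendrocytes. 5xFAD animals carried transgenes of familial Alzheimer's disease, mutant human APP among them, that lead to amyloid plaques, and Cnp-/- 5xFAD animals carried both changes. In 5xFAD mice the transgenes are driven by the neuronal Thy1 promoter, so amyloid precursor is overproduced in neurons that use this promoter. Each genotype gave 2 libraries, replicates 1 and 2, from hemispheres without cerebellum and olfactory bulb. Pooling of 2 animals per replicate is given for single cell work in general, but the methods name it only for a younger set of mice. Whether each library here is such a pool is therefore unsure, and P values measure the spread between libraries, which may be technical. Female animals are stated for the Cnp-/- crosses in general, but the libraries went against this, with the Y-linked gene Uty at 116 to 137 CPM and Xist, the RNA of the inactive X chromosome, at most 0.757 CPM in excitatory neurons of all 8.

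The striatum is built mainly of GABAergic spiny projection neurons (SPNs), which receive glutamate from cortex and thalamus and dopamine from the midbrain. SPNs of the indirect pathway carry the Gi-coupled dopamine receptor D2 and the Gs-coupled adenosine receptor A2a, store enkephalin and project to the external globus pallidus. SPNs of the direct pathway carry the dopamine receptor D1, store substance P and dynorphin and project to the midbrain and the internal pallidum. Rgs9 encodes a striatum-enriched protein that shortens G protein signals, Gad1 and Gad2 encode the enzymes that make GABA, and Slc17a7 encodes a glutamate transporter of excitatory neurons.

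The 8 libraries held between 68905044 and 82399061 UMIs in 45141 neurons and the other cell types. The targeted gene followed the labels in mature oligodendrocytes, where Cnp was counted at 219 to 321 CPM (UMIs per 1000000 UMIs of the summed nuclei) in the 4 libraries with Cnp and at 23.2 to 32.8 CPM in the 4 libraries without it. Any pair of libraries shared 9 to 28 cell barcodes. Of the members, 9 had a barcode that was also found in another library, and no barcode was shared by members of different libraries.

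Drd2 neurons were found in 5 of the 8 libraries. WT 1 held 37, Cnp-/- 1 held 112, Cnp-/- 2 held 22, 5xFAD 2 held 131 and Cnp-/- 5xFAD 1 held 50. WT 2, 5xFAD 1 and Cnp-/- 5xFAD 2 held 0 members among 5547, 4463 and 6181 neurons. If a count of 0 allows 3 counts, shares of up to 0.0541%, 0.0672% and 0.0485% are possible. The upper 95% Wilson limits are wider, at 0.0692%, 0.0860% and 0.0621%. The same 3 libraries held 1 Drd1 neuron each and only 29 to 50 GABAergic neurons with at least 2 UMIs of Rgs9, against 154 to 711 in the other 5 libraries. Within each of the WT, 5xFAD and Cnp-/- 5xFAD genotypes, therefore, 1 library had striatal neurons and the other had almost none. Fewer nuclei of a class and less tissue of a region in the dissected sample cannot be told apart here.

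Members made up 0.605% of neurons in WT 1 (95% Wilson interval 0.439 to 0.832), 1.90% in Cnp-/- 1 (1.58 to 2.28), 0.322% in Cnp-/- 2 (0.213 to 0.487), 2.55% in 5xFAD 2 (2.15 to 3.02) and 1.01% in Cnp-/- 5xFAD 1 (0.767 to 1.33). These intervals and the limits above cover counting error only. The 2 libraries of each genotype lay further apart than their counting error. The share was 0.808% ± 0.841 (SD, n = 4 libraries) without Cnp and 0.788% ± 1.21 (n = 4) with it, a difference of 0.0195 percentage points (two-sided exact permutation test, P = 1.0, adjusted over 4 tests P = 1.0). With 5xFAD the share was 0.889% ± 1.20 (n = 4) against 0.706% ± 0.833 (n = 4), a difference of 0.183 percentage points (exact permutation test, P = 0.743, adjusted P = 0.990). The smallest P that 4 against 4 libraries can give is 0.0286. Leaving out 1 library turned the sign of the Cnp difference in 5 cases (WT 1, WT 2, Cnp-/- 1, 5xFAD 1 or Cnp-/- 5xFAD 1) and that of the 5xFAD difference in 2 (WT 2 or 5xFAD 2).

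**Figure D1:**
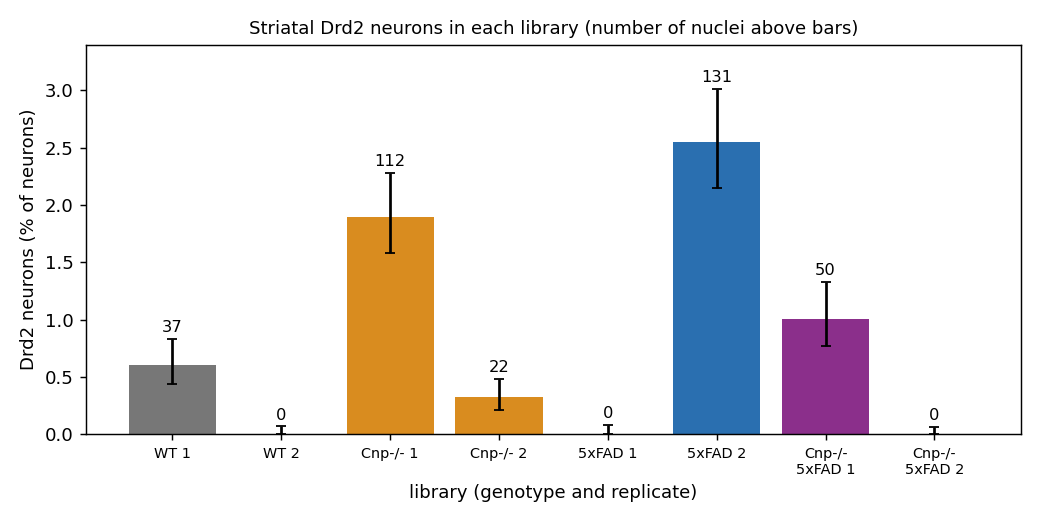
Share of Drd2 neurons among the neurons of each library, in percent, with 95% Wilson intervals as error bars and the number of nuclei above each bar. The bars range from 0 in 3 libraries to 2.55% in 5xFAD 2, and the libraries of 1 genotype differ from each other as much as the genotypes do.

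Members were also counted as a share of Drd1 and Drd2 neurons together. The share was 56.1% in WT 1, 67.1% in Cnp-/- 1, 88.0% in Cnp-/- 2, 68.2% in 5xFAD 2 and 72.5% in Cnp-/- 5xFAD 1, and 0% in the 3 other libraries, where it rests on 1 nucleus each. It was 56.9% ± 38.9 without Cnp and 31.1% ± 36.2 with it (n = 4 libraries each, exact permutation test, P = 0.314, adjusted P = 0.990). With 5xFAD it was 35.2% ± 40.7 against 52.8% ± 37.6 (n = 4 each, exact permutation test, P = 0.657, adjusted P = 0.990). In the 5 libraries with members alone, the Cnp difference was 13.7 percentage points (3 against 2 libraries, exact permutation test, P = 0.300). The 5xFAD difference was -0.0290 percentage points there (exact permutation test, P = 1.0). In the same 5 libraries, with neurons thinned to 5000 UMIs and shallower ones left out, the Cnp difference was 3.45 percentage points (exact permutation test, P = 1.0) and the 5xFAD difference -8.26 (P = 0.8).

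The rule was built on few molecules per nucleus. Members held 2 to 17 UMIs of Drd2 (median 3) and 2 to 30 UMIs of Rgs9 (median 7). Of the 10424 GABAergic neurons, 2227 held at least 2 UMIs of Rgs9 and 411 of these at least 2 UMIs of Drd2. Of these 411 nuclei, 59 also held Drd1 and were left out. Another 1102 GABAergic neurons with Rgs9 held neither receptor. Of the members, 97 held exactly 2 UMIs of Drd2, and 111 nuclei with 1 UMI lay just outside. Adora2a was counted at 61.4 CPM in the nuclei just outside, at 144 CPM in those just inside and at 140.5 CPM in members with 3 or more UMIs. Penk followed the same order of the first 2 sets (59.0, 133 and 109 CPM), and Tac1 went the other way (38.6, 15.9 and 14.5 CPM). Median UMIs per nucleus were 7671, 7800 and 9535.

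Genes that SPNs share, which the rule did not use, were high in members. A list of 16 such genes summed to 11028 to 13266 CPM in the members of the 5 libraries, against 3353 CPM in GABAergic neurons without Rgs9, Drd1 and Drd2 and 4118 CPM in excitatory neurons. Pde10a, the phosphodiesterase that breaks down cyclic nucleotides in SPNs, had at least 1 UMI in all 352 members. Its level was 2847 CPM in WT 1, 2729 in Cnp-/- 1, 3110 in Cnp-/- 2, 2518 in 5xFAD 2 and 3118 in Cnp-/- 5xFAD 1, against 703 CPM in the other GABAergic neurons. Rarb, a retinoic acid receptor of developing and adult striatum, lay between 1028 and 1424 CPM in members and at 51.5 CPM in other GABAergic neurons. Ppp1r1b encodes DARPP-32, the phosphoprotein on which dopamine signals of SPNs converge. It was counted at 38.6, 47.0, 40.3, 52.1 and 51.3 CPM in the 5 libraries (in the order given for Pde10a) and at 1.10 CPM in the other GABAergic neurons. Adcy5, the adenylyl cyclase of SPNs, lay between 371 and 472 CPM, and Gnal, the stimulatory G protein subunit that couples D1 and A2a receptors to it, between 583 and 732 CPM. The levels of these genes varied less among the 5 libraries than between members and other GABAergic neurons.

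Adora2a and Penk, genes known for the indirect pathway, were each present in most members. Adora2a, which encodes the A2a receptor, was found in 72.2% of members, 4.12% of Drd1 neurons, 0.476% of other GABAergic neurons and 0.344% of excitatory neurons. Median depths were 9000.5, 9886, 6427 and 11205 UMIs, so the classes lacking the gene were not all shallower. After thinning to 3000 UMIs per nucleus the shares were 37.2%, 1.06%, 0.185% and 0.0785%. Penk, the precursor of enkephalin, was found in 57.1% of members, 17.1% of Drd1 neurons, 5.66% of other GABAergic neurons and 0.488% of excitatory neurons (29.1%, 6.88%, 2.91% and 0.111% after thinning). Of the 352 members, 143 held both Adora2a and Penk, 111 held Adora2a alone, 58 held Penk alone and 40 held neither. Tac1, the precursor of substance P, was found in 38 members. The receptors Gpr6 and Gpr52 were sparse, with 20 and 32 UMIs over all members. As a whole the 9 genes listed for the indirect pathway summed to 1055 to 1274 CPM in members and 395 to 1080 CPM in Drd1 neurons. In other GABAergic neurons the sum was 997 to 1103 CPM, a range that overlapped that of members.

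Markers of other cell types that use Drd2 were also counted. Cholinergic interneurons of the striatum and dopaminergic neurons of the midbrain both express the receptor. The 4 cholinergic markers summed to 0 to 6.09 CPM per library, with 7 UMIs of Chat and 1 of Slc18a3 over all members. The 4 dopaminergic markers summed to 31.4 CPM over all members (15.1 to 55.1 per library), against 14.9 CPM in Drd1 neurons, 17.9 in other GABAergic neurons and 9.10 in excitatory neurons. Of these markers, the dopamine transporter gene Slc6a3 had 0 UMIs in members, Th had 8, Slc18a2 had 37 and Ddc had 80. The 8 markers of other GABAergic interneurons summed to 316 to 1349 CPM, highest in Cnp-/- 2, against 3421 CPM in other GABAergic neurons. The 8 markers of mature oligodendrocytes summed to 110 CPM in WT 1, 610 in Cnp-/- 1, 121 in Cnp-/- 2, 294 in 5xFAD 2 and 171 in Cnp-/- 5xFAD 1.

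Members did not all fall in 1 cluster of the authors' clustering of all nuclei. Cluster 9 held 235 members (66.8%, median 7543 UMIs) and cluster 0 held 92 (26.1%, median 16462.5 UMIs). Clusters 13, 11 and 8 held 18, 6 and 1. Since the clustering used these genes, the values that follow are a description. Members in cluster 9 had 204 CPM of Adora2a, 169 CPM of Penk and 74.0 CPM of Ppp1r1b, against 80.0, 53.9 and 24.4 CPM in cluster 0. Members in cluster 0 had more of genes known from other cells. Their level of Adarb2, known from interneurons, was 1090.4 CPM against 180. High Adarb2 was not limited to cluster 0, with 979 CPM in Drd1 neurons of cluster 9 and 756 CPM in cluster 9 members of Cnp-/- 2. Mbp, a myelin gene, was at 245 CPM against 15.8. Nuclei outside cluster 9 gave 61.1%, 56.2%, 38.7%, 51.7% and 39.9% of the members' UMIs in WT 1, Cnp-/- 1, Cnp-/- 2, 5xFAD 2 and Cnp-/- 5xFAD 1. Whether droplets with transcripts of more than 1 nucleus are among them was not tested.

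Drd2 neurons were next compared with Drd1 neurons of the same library, which asks what else separates the SPN classes once dissection is shared. The fit took the 5 libraries with members and held 2 profiles of each. The Drd1 profile of Cnp-/- 2 came from 3 nuclei and 45380 UMIs, so that a count of 0 there allows up to 66.1 CPM. By edgeR's quasi-likelihood test with the library as a block and Benjamini-Hochberg adjustment, 107 of 7403 genes differed (1.45%). Of these, 50 were higher (0.675%) and 57 lower (0.77%) in Drd2 neurons. Of the genes tested, 679 (9.17%) had 1 sign in all 5 libraries, called or not. Without 5xFAD 2, 63 genes were called. The 6 genes of the rule were not tested. P values of the other genes rest on nuclei that were selected on Drd2 and Drd1, and describe what goes with that choice.

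Adora2a (chromosome 10 from 75316877 to 75334784 in GRCm38) was counted in Drd2 neurons at 132 CPM in WT 1, 129 in Cnp-/- 1, 136 in Cnp-/- 2, 143 in 5xFAD 2 and 179 in Cnp-/- 5xFAD 1. In Drd1 neurons of these libraries it was at 0, 1.69, 0, 8.68 and 5.37 CPM. The classes did not overlap, and the log2 difference was 4.85 ± 0.30 (SE, edgeR adjusted P = 1.38e-09). Penk (chromosome 4 from 4133531 to 4138819) was at 60.6, 140.1, 65.4, 116 and 125 CPM in Drd2 neurons and at 2.20, 30.4, 44.1, 12.5 and 32.2 CPM in Drd1 neurons. It was higher in Drd2 neurons of all 5 libraries, with a log2 difference of 2.63 ± 0.25 (edgeR adjusted P = 1.07e-06), although the gap was small in Cnp-/- 2.

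Tac1 (chromosome 6 from 7554879 to 7565834) went the other way, with 9.18, 12.1, 10.1, 21.0 and 11.4 CPM in Drd2 neurons and 90.4, 77.6, 44.1, 54.0 and 118 CPM in Drd1 neurons. The difference of -2.35 ± 0.28 on the log2 scale (edgeR adjusted P = 1.95e-05) held in every library. Drd3, the dopamine receptor of the ventral striatum, was lower in all 5 libraries (20.1 to 50.7 CPM against 75.0 to 110 CPM, log2 difference -1.22 ± 0.20, edgeR adjusted P = 0.00139). Oprd1, the delta opioid receptor at which enkephalin acts, was higher (67.0 to 99.2 CPM against 0 to 52.9 CPM, 1.52 ± 0.22, edgeR adjusted P = 0.000318). Crhr1, a receptor of corticotropin-releasing hormone, was higher by 1.38 ± 0.31 (edgeR adjusted P = 0.0207), and Htr2c, a serotonin receptor, by 1.31 ± 0.16 (edgeR adjusted P = 1.97e-05).

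Receptors for the main transmitters of the striatum differed in single members. Grik3, a kainate receptor subunit, was counted at 321, 286, 267, 252 and 342 CPM in Drd2 neurons and at 46.3, 77.6, 154, 93.5 and 37.6 CPM in Drd1 neurons (log2 difference 1.98 ± 0.20, edgeR adjusted P = 1.85e-06). The classes were separate in level across all libraries. It was the only 1 of 13 glutamate receptor genes to pass, and their median log2 difference was 0.14, against 0.004 over all genes tested. Gabra4, a GABA-A receptor subunit of SPNs, was the only 1 of 14 GABA genes to pass (log2 difference 0.56 ± 0.13, edgeR adjusted P = 0.0316, list median 0.11).

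Genes of enzymes and other proteins were also among those higher in Drd2 neurons. Upb1, an enzyme of pyrimidine breakdown, was at 36.7, 25.1, 30.2, 54.1 and 49.4 CPM in Drd2 neurons and at 0 to 2.89 CPM in Drd1 neurons, with 0 UMIs in 3 of the 5 libraries (edgeR adjusted P = 2.06e-06). It lies after Adora2a on the same strand of chromosome 10, from 75401115 to 75441679. Whether this position bears on its level was not tested. Adk, adenosine kinase, which clears the ligand of the A2a receptor, was at 380, 336, 247, 385 and 350 CPM against 159, 99.6, 154, 121 and 75.2 CPM (log2 difference 1.61 ± 0.15, edgeR adjusted P = 1.07e-06). Every Drd2 profile thus lay above every Drd1 profile for Adk. The lipid phosphatase gene Fig4 was higher by 1.56 ± 0.18 (edgeR adjusted P = 1.95e-05), the exchange factor gene Vav3 by 1.19 ± 0.16 (adjusted P = 0.00014) and Sgcz, a sarcoglycan gene, by 1.04 ± 0.12 (adjusted P = 1.89e-05). Dach1, a transcriptional regulator, was higher by 1.32 ± 0.15 (edgeR adjusted P = 1.53e-05).

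Among the genes lower in Drd2 neurons were transcription factors, adhesion molecules and growth factor genes. Foxp2 was at 259, 233, 312, 317 and 173 CPM against 644, 1139, 1322, 839 and 1482 CPM (log2 difference -1.98 ± 0.19, edgeR adjusted P = 1.07e-06), while its relative Foxp1 was higher by 0.53 ± 0.11 (edgeR adjusted P = 0.0155). Foxp1 and Foxp2 encode related forkhead repressors. Cntnap3, a neurexin-like adhesion gene, differed by -1.90 ± 0.18 (edgeR adjusted P = 1.48e-06). Mdk, a secreted growth factor, differed by -2.14 ± 0.30 (edgeR adjusted P = 0.00014) and Gfra1, a receptor of the GDNF family, by -1.86 ± 0.22 (edgeR adjusted P = 1.97e-05). The neuregulin receptor gene Erbb4 was at 839, 1050, 1585, 775 and 517 CPM against 2216, 1831, 2182, 2069 and 1960 CPM (log2 difference -1.20 ± 0.16, edgeR adjusted P = 8.3e-05). Pbx3, Ust, 6530403H02Rik and Adarb2 were lower by log2 differences of -1.09, -1.07, -0.99 and -1.11. Erbb4 and Adarb2 were 1393 and 963 CPM in members outside cluster 9 and 310 and 180 CPM in those inside it. In cluster 9 alone, where 4 libraries held both classes and Cnp-/- 2 held no Drd1 neuron, 94 of the 107 called genes could be tested and 90 passed again with the same sign.

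**Figure D2:**
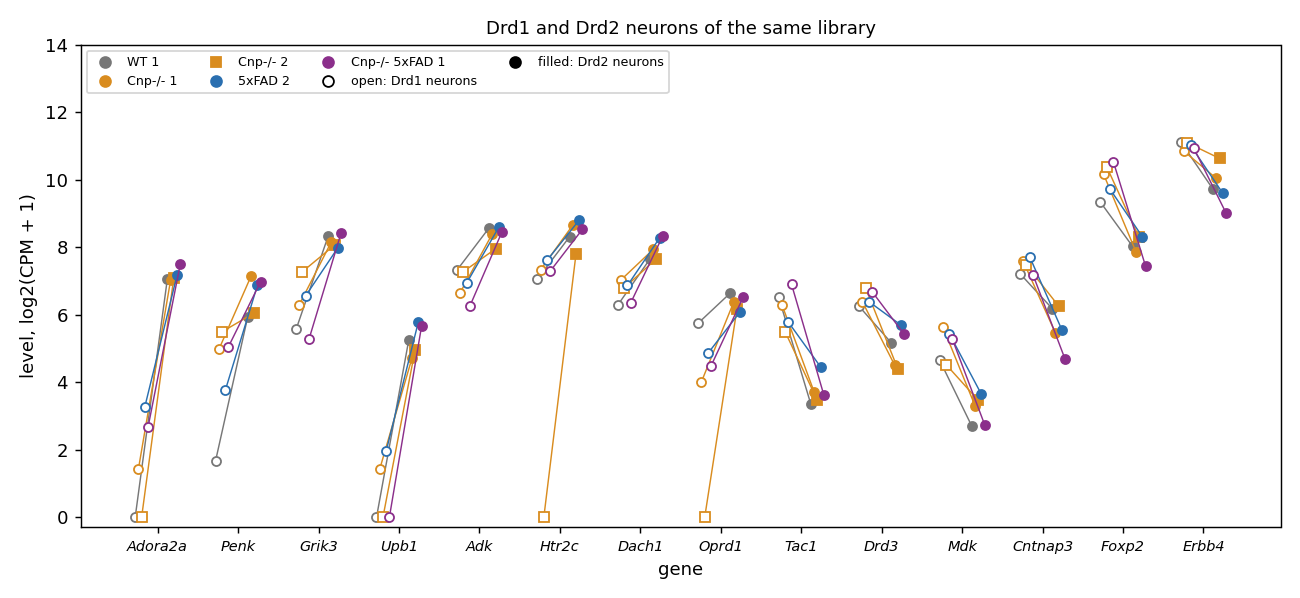
Level in Drd1 neurons (open symbols) and Drd2 neurons (filled symbols) of the same library, joined by a line, as log2(CPM + 1) for 14 genes. Lines rise for Adora2a, Penk, Grik3, Upb1, Adk, Htr2c, Dach1 and Oprd1 and fall for Tac1, Drd3, Mdk, Cntnap3, Foxp2 and Erbb4 in all 5 libraries, and symbols at 0 stand for no UMI.

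The lists of SPN genes are set against all 7403 genes tested, of which 1.45% were called (0.675% higher and 0.77% lower) with a median log2 difference of 0.004. Of the 9 genes listed for the indirect pathway, 4 passed the filter on low counts and all 4 were higher (Adora2a, Penk, Grik3 and Ptprm, median log2 difference 2.30), Ptprm in 4 of the 5 libraries. The call of Ptprm was lost in some other settings. A gene could pass this filter through a single class, as Adora2a did through Drd2 neurons and Tac1 through Drd1 neurons. The signs and medians of the indirect and direct pathway lists are thus partly set by the filter. Gpr6, Gpr52, Sp9, Plxdc1 and Ttc12 were below the filter, at 5.02, 8.03, 17.8, 18.8 and 5.77 CPM over all members. Of the 9 genes listed for the direct pathway, 4 were tested, of which only Tac1 passed (median -0.85). Isl1, a transcription factor of the direct pathway that was below the filter, was at 2.76 CPM in members and at 33.2 CPM in Drd1 neurons. Of the 16 genes that SPNs share, 15 were tested and only Foxp1 differed (median 0.32). Markers of striosomes, the patches of the striatum that are rich in the mu opioid receptor, had a median log2 difference of -0.04 over 5 tested, with 2 above and 3 below 0. Of these Tshz1 (-0.70 ± 0.16, lower in 4 of the 5 libraries) and Sema5b (-1.19 ± 0.21, lower in 3 of 5) passed, and the call of Tshz1 was lost in some other settings. Col11a1, on the list for eccentric SPNs, differed by -1.15 ± 0.18, and Stard5, on the list for the ventral striatum, by 0.70 ± 0.17. No gene passed among 3 matrix genes, 3 genes of the dorsal striatum, 17 voltage-gated channel genes, 11 genes of the node and paranode, 10 genes of amyloid precursor processing, 13 genes of vesicle release and 8 genes of endocannabinoid signalling, with medians from -0.13 to 0.51 on the log2 scale. Of 18 genes for dopamine, adenosine and cAMP signalling, Adora2a was higher and Drd3 lower (median 0.19). Of 6 neuropeptide and receptor genes, 3 were higher and 1 lower.

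The effect of Cnp loss within Drd2 neurons could be fitted only in the 5 libraries with members. These are WT 1 and 5xFAD 2, with Cnp, and Cnp-/- 1, Cnp-/- 2 and Cnp-/- 5xFAD 1, without it. Only Cnp-/- had more than 1 library, so the spread in this fit and in those for 5xFAD rests on that pair and on 1 residual degree of freedom. The profiles of the 5 libraries correlated across 8848 genes with Spearman's rho from 0.851 to 0.954, lowest where Cnp-/- 2, with 22 members, took part. Genes are not independent replicates.

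With Cnp loss, 3 genes were higher and 7 lower in Drd2 neurons, 10 of 8848 genes tested (0.113%, edgeR adjusted P threshold 0.05). By DESeq2 2 genes passed, and 253 genes had an unadjusted P below the same threshold. Levels did not overlap between libraries with and without Cnp in 2 of the 3 higher and 4 of the 7 lower genes, against 16.0% of all genes tested. Where each genotype effect was fitted as additive, 6 genes were called.

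The clearest member was A830036E02Rik, a non-coding RNA gene (chromosome 11 from 99416956 to 99425497 in GRCm38, plus strand). It was counted at 75.3 CPM in WT 1 and 85.9 CPM in 5xFAD 2 and had 0 UMIs in Cnp-/- 1, Cnp-/- 2 and Cnp-/- 5xFAD 1. Against a floor of 3 counts over these libraries it was at least 54.2-fold lower without Cnp (edgeR adjusted P = 4.52e-31). Krt12, a keratin gene on the opposite strand (chromosome 11 from 99415666 to 99422259), shares 5304 bases with it. It was at 42.2 and 30.4 CPM with Cnp and at 0.810, 0 and 0 CPM without it (edgeR adjusted P = 3.56e-06). Whether counting used the strand is not stated in the sources used here, so reads of these overlapping genes may not be told apart. Both lie before Cnp on the same chromosome, with 1.15 Mb between the end of A830036E02Rik and the start of Cnp (from 100574904 to 100591729).

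Neither gene was particular to Drd2 neurons. In excitatory neurons of all 8 libraries A830036E02Rik lay between 70.5 and 88.5 CPM with Cnp and between 0.588 and 1.11 CPM without it. Krt12 lay between 31.5 and 46.1 CPM with Cnp and between 1.98 and 3.23 CPM without it. Adap1, which encodes a neuronal protein that binds inositol phosphates, showed the same split in the other direction in excitatory neurons (84.0 to 95.7 against 152 to 159 CPM). In Drd2 neurons Adap1 was at 47.7 CPM in WT 1 and 51.4 in 5xFAD 2, and at 99.6, 70.4 and 112 CPM in Cnp-/- 1, Cnp-/- 2 and Cnp-/- 5xFAD 1 (log2 difference 1.06 ± 0.26, edgeR adjusted P = 0.0483). Its groups did not overlap, but it lay just inside the threshold and passed in 3 of 14 other settings of the analysis.

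Slc7a11, the cystine and glutamate exchanger, was at 12.9 and 7.44 CPM with Cnp and at 49.4, 60.4 and 154 CPM without it (log2 difference 3.20 ± 0.33, edgeR adjusted P = 1.08e-18). Of its UMIs, 8 came from 4 members in cluster 9 and 164 from 27 members outside it. In cluster 9 its groups overlapped, at 9.44 CPM in WT 1, 49.3 in Cnp-/- 2 and 0 in the others. Without Cnp-/- 5xFAD 1 it did not pass (additive model, log2 difference 2.01, edgeR adjusted P = 0.119). In excitatory neurons the groups of libraries overlapped for Slc7a11 (2.67 to 7.46 CPM with Cnp, 0.856 to 5.52 without). Its level in other GABAergic neurons was highest in WT 1 and Cnp-/- 2, at 79.0 and 58.2 CPM. Gm42418, a gene whose annotation lies at a ribosomal RNA repeat, was at 211 and 98.1 CPM with Cnp and at 70.4, 20.1 and 24.7 CPM without it (log2 difference -1.89 ± 0.27, edgeR adjusted P = 2.43e-09). Gm47283 was at 129 and 305 CPM with Cnp and at 81.0, 100.6 and 79.9 CPM without it (-1.22 ± 0.24, edgeR adjusted P = 0.000349). It did not pass in 8 of 14 other settings, DESeq2, cluster 9 alone and the additive model of all 5 libraries (-1.19, edgeR adjusted P = 0.393) among them. In the additive model without 5xFAD 2 or without Cnp-/- 5xFAD 1 its log2 difference was -0.57 (adjusted P = 1.0 for both by edgeR). In excitatory neurons neither gene separated the libraries with and without Cnp. In members of cluster 9 Gm42418 was at 453 CPM in WT 1 and at 0 to 67.2 CPM in the others. Outside cluster 9 its groups overlapped, with 57.1 CPM in WT 1 and 105 CPM in Cnp-/- 1.

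Adarb2, Il1rapl2, Nxph1 and Ndst4 were also called, but their libraries overlapped. For Adarb2 the levels were 246 and 532 CPM with Cnp and 770.0, 1303 and 403 CPM without it. The other genes with the lowest P among those higher without Cnp did not pass. Of these, St18 had a log2 difference of 1.29 ± 0.36 (edgeR adjusted P = 0.18), Crym 1.20 ± 0.37 (adjusted P = 0.456) and Chst9 2.04 ± 0.58 (adjusted P = 0.204), and Slc6a20a (adjusted P = 0.245) had 0 UMIs in WT 1 and Cnp-/- 2. Cnp itself was at 18.4, 8.10, 5.03, 17.6 and 9.51 CPM in members of WT 1, Cnp-/- 1, Cnp-/- 2, 5xFAD 2 and Cnp-/- 5xFAD 1, and was below the filter on low counts.

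Of the SPN, cell type and pathway lists, 29 of 30 held no gene that passed for Cnp loss, where 0.113% of all genes did. The exception was Adarb2 on the interneuron list. The cholinergic and endothelial lists had 0 genes tested and could hold no call, and some others had 1 gene tested. All 16 genes that SPNs share were tested, with a median log2 difference of 0.16 against 0.0005 over all genes. The medians were 0.15 for 6 indirect pathway genes and 0.15 for 20 genes of dopamine, adenosine and cAMP signalling. They were 0.03 for 12 genes of the node and paranode, where myelin meets the axon, and 0.02 for 12 genes of amyloid precursor processing. Other lists had larger medians with no gene that passed, 0.85 for 6 markers of mature oligodendrocytes (6 of 6 above 0), 0.96 for 3 microglial markers (3 of 3 above 0) and -2.91 for 4 mitochondrially encoded genes (4 of 4 below 0). Their sums per library in members were 110 to 610, 40.4 to 108.5 and 3.8 to 110 CPM. The oligodendrocyte and microglial sums were highest in Cnp-/- 1, and the mitochondrial sum in WT 1. A gene could enter this fit through a single library, so these counts of signs are partly set by the filter and carry no further weight.

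**Figure D3:**
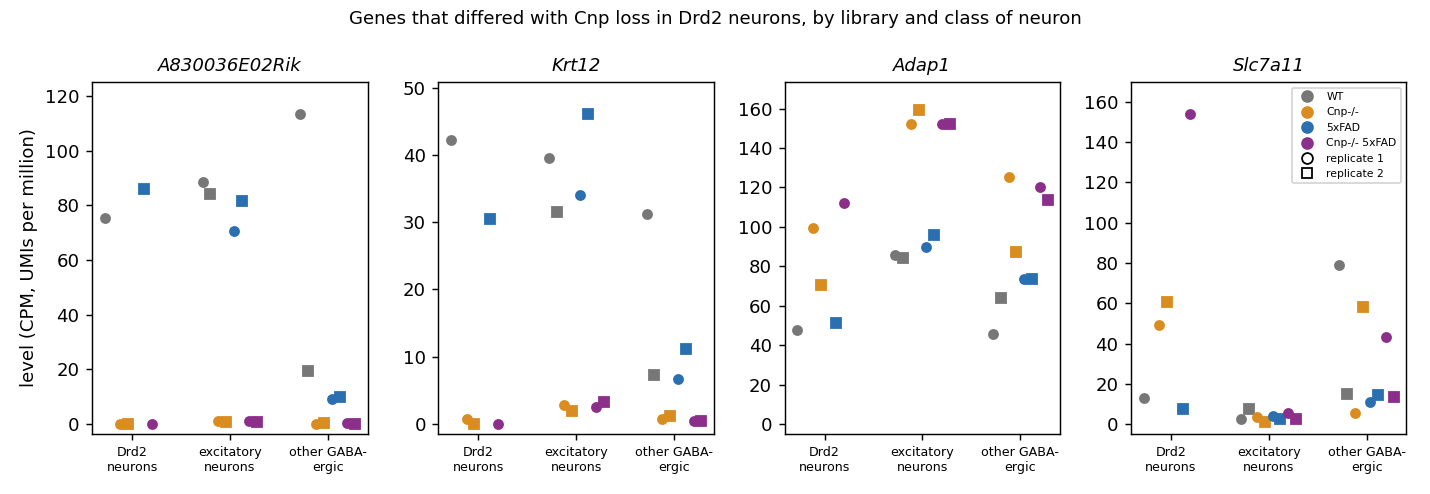
Level in CPM of 4 genes called with Cnp loss, in Drd2 neurons of the 5 libraries with members and in excitatory and other GABAergic neurons of all 8 libraries, with colour for genotype, circles for replicate 1 and squares for replicate 2. A830036E02Rik and Krt12 lie near 0 in every library without Cnp and every class shown, and Adap1 is higher without Cnp in every class shown. Of these classes, Slc7a11 separates the genotypes in Drd2 neurons alone, through members outside cluster 9, and its levels overlap in the others. Drd1 neurons are not shown.

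In 5xFAD libraries, 5 genes were higher and 58 lower in Drd2 neurons, 63 of 8848 genes tested (0.712%, 0.656% for those lower), by edgeR's quasi-likelihood test. By DESeq2 2 genes passed, and 470 genes had an unadjusted P below 0.05. Here WT 1, Cnp-/- 1 and Cnp-/- 2 were compared with 5xFAD 2 and Cnp-/- 5xFAD 1. Groups did not overlap in all 5 higher and in 46 of the 58 lower genes, against 20.1% of all genes tested. With additive genotype effects 5 genes were called.

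Il1rapl2, a synaptic adhesion gene of the interleukin receptor family on the X chromosome, was at 404 CPM in WT 1, 84.2 in Cnp-/- 1 and 196 in Cnp-/- 2, and at 83.2 in 5xFAD 2 and 11.4 in Cnp-/- 5xFAD 1 (log2 difference -2.82 ± 0.29, edgeR adjusted P = 7.41e-18). The groups did not overlap, but Cnp-/- 1 and 5xFAD 2 were almost equal. Chrm2, a muscarinic acetylcholine receptor, was at 132, 29.1 and 166 CPM against 20.3 and 11.4 CPM (-2.57 ± 0.32, edgeR adjusted P = 3.03e-12). Shisa6, an AMPA receptor partner, was at 178, 94.7 and 60.4 CPM against 35.2 and 32.3 CPM (-1.86 ± 0.27, edgeR adjusted P = 8.49e-09). The Cnp-/- libraries lay closer together in Shisa6 than in Chrm2.

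Nxph1, a neurexin ligand, was at 692, 300.4 and 282 CPM against 212 and 106 CPM (-1.58 ± 0.22, edgeR adjusted P = 1.27e-09). Kcnc2, a fast potassium channel gene of interneurons, was at 395, 313 and 574 CPM against 118 and 169 CPM (-1.52 ± 0.22, edgeR adjusted P = 5.47e-09). Klhl1, Cntnap4, Kcnmb2, Dscam and Kcnj3 were lower by log2 differences of -1.52, -1.51, -1.49, -1.10 and -1.06. On the lists for SPNs and pathways, Grik1 (-0.83 ± 0.23, edgeR adjusted P = 0.0419), Gria4 (-0.71 ± 0.19, adjusted P = 0.0367) and Ebf1 (-4.96 ± 1.09, adjusted P = 0.00247) were lower too. Ebf1 was at 69.8 CPM in WT 1, 0 in Cnp-/- 5xFAD 1 and 5.41 to 12.1 in the others, and Gria4 overlapped between the groups. In other GABAergic neurons of every library these genes went both ways. Both ends of the range were higher with 5xFAD for Shisa6, Nxph1, Kcnc2, Kcnmb2 and Grik1. Nxph1 was at 1561 to 1910 CPM with 5xFAD and at 1044 to 1715 CPM without it. Both ends were lower for Chrm2, Klhl1, Cntnap4, Dscam, Kcnj3, Gria4 and Ebf1. Il1rapl2 lay at 651 to 773 against 397 to 819 CPM.

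Other values of these libraries are given beside the lower genes. WT 1 and Cnp-/- 2 held the most GABAergic neurons of all 8 libraries (2423 and 2062, against 604 to 1485). Among the 58 genes called lower, 50 were highest in WT 1 or Cnp-/- 2 and 8 in Cnp-/- 1. In 44 of them Cnp-/- 5xFAD 1 was the lowest of the 5 libraries. These genes were chosen as lower in 5xFAD 2 and Cnp-/- 5xFAD 1, so these counts are partly set by that choice. They were not set against all genes and carry no further weight. Of the 58 genes, 45 were at least 2 times higher in the 117 members outside cluster 9 than in those inside it, against 9.02% of all genes tested. Il1rapl2 was at 6.30 CPM in cluster 9 and 231 CPM outside it, Kcnc2 at 26.3 and 447 CPM, and Nxph1 at 26.8 and 540 CPM. In cluster 9 alone, 49 of the 63 called genes could be tested, of which 48 kept their sign and 18 passed again, while the log2 difference of Nxph1 turned to 0.33. Nuclei outside cluster 9 gave 39.9% of UMIs in Cnp-/- 5xFAD 1 and 61.1% in WT 1, but 38.7% in Cnp-/- 2. Mitochondrially encoded transcripts, of which 8 were listed as a sign of RNA quality, summed to 110 CPM in WT 1, 65.4 in Cnp-/- 2, 33.8 in 5xFAD 2, 17.8 in Cnp-/- 1 and 3.8 in Cnp-/- 5xFAD 1. None of the 4 tested passed (median log2 difference -3.16, 4 of 4 below 0). A gene could enter the fit through a single library, such as WT 1, so this count of signs is partly set by the filter. The part of these transcripts in the differences was not tested.

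Of the 5 genes that were higher, Crym, a thyroid hormone-binding protein on the list for the ventral striatum, was at 7.35 CPM in WT 1, 42.9 in Cnp-/- 1, 5.03 in Cnp-/- 2, 61.5 in 5xFAD 2 and 66.6 in Cnp-/- 5xFAD 1 (log2 difference 1.98 ± 0.35, edgeR adjusted P = 1.54e-05). The Cnp-/- libraries differed here by more than Cnp-/- 1 did from either 5xFAD library, and in the additive model Crym did not pass with all 5 libraries (log2 difference 1.5, edgeR adjusted P = 0.43), without WT 1 (0.96) or without 5xFAD 2 (0.98). Pde1a, a calmodulin-dependent phosphodiesterase, was at 154, 203 and 191 CPM against 390.2 and 297 CPM (0.96 ± 0.21, edgeR adjusted P = 0.00286). It did not pass in 9 of 14 other settings, among them DESeq2, at least 3 UMIs (0.80, edgeR adjusted P = 0.15), at least 1 UMI (0.67, adjusted P = 0.0651) and the additive model with all 5 libraries (0.92, adjusted P = 0.168), without WT 1 (0.61) or without 5xFAD 2 (0.61). Sub1 was at 1.84, 25.1 and 5.03 CPM against 26.4 and 39.9 CPM, and Lypd1 at 1.84, 17.8 and 25.2 CPM against 31.8 and 30.4 CPM, in the same order. The WT 1 value was 1 UMI for each. In the additive model neither passed, with log2 differences of 1.52 and 1.47 over all 5 libraries (edgeR adjusted P = 0.783 for both) and 0.97 and 0.68 without WT 1 (adjusted P = 1.0 for both by edgeR). Lypd1 is on the striosome list, whose 6 tested genes had a median log2 difference of -0.28 with 2 above and 4 below 0, and no other of them passed. Sox1ot was at 23.9, 42.9 and 55.4 CPM against 88.6 and 58.9 CPM, and it did not pass in 12 of 14 other settings.

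For genes that define these neurons the counts are read against the 0.712% of all genes called for 5xFAD, a share at which lists of this size would hold few or no calls. None of 16 shared SPN genes passed (median log2 difference 0.09, 12 above and 4 below 0), nor any of 6 indirect pathway genes (0.14) or 20 genes of dopamine, adenosine and cAMP signalling (0.14). The same held for 12 genes of amyloid precursor processing (0.03) and 5 immediate early genes (-0.71), against a median of 0.0003 over all genes. The mouse App gene, which encodes the amyloid precursor, was at 367, 421, 302, 394 and 356 CPM (0.02 ± 0.20, adjusted P = 1.0 by edgeR). Thy1, whose promoter drives the transgenes, was at 31.2 CPM in WT 1, 26.7 in Cnp-/- 1, 5.03 in Cnp-/- 2, 9.47 in 5xFAD 2 and 7.61 in Cnp-/- 5xFAD 1 (-1.60 ± 0.61, edgeR adjusted P = 0.489). Neither passed for Cnp loss (App -0.04 ± 0.20 and Thy1 -0.39 ± 0.64, adjusted P = 1.0 for both by edgeR).

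**Figure D4:**
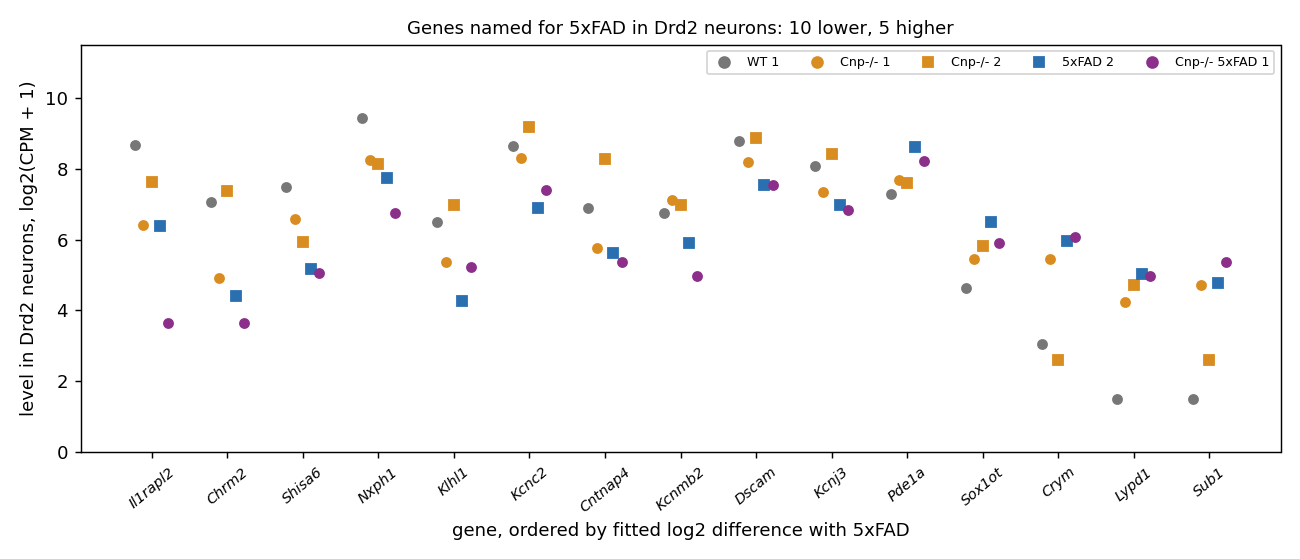
Level in Drd2 neurons as log2(CPM + 1) for the 10 lower and 5 higher genes named for 5xFAD, ordered by the fitted log2 difference, with 1 symbol per library. The 5xFAD 2 and Cnp-/- 5xFAD 1 symbols lie below the other 3 in the first 10 genes and above them in the last 5, with Cnp-/- 1 close to 5xFAD 2 in several, among them Il1rapl2 (84.2 and 83.2 CPM), Sub1 (25.1 and 26.4 CPM) and Cntnap4 (53.4 and 48.0 CPM).

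Whether the effect of Cnp loss differed on the 5xFAD background was tested by the interaction in the same fit. It was called for 22 of 8848 genes (0.249%), 5 with a higher and 17 with a lower effect of Cnp loss on the 5xFAD background. DESeq2 called 0, and 389 genes had an unadjusted P below 0.05. In 4 of the 5 and 13 of the 17 the libraries on either side of the contrast did not overlap, against 20.8% of all genes tested. Because WT, 5xFAD and Cnp-/- 5xFAD each entered with 1 library, an odd library and an interaction cannot be told apart.

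For the matrix marker Calb1, a calcium-binding protein, levels were 23.9 CPM in WT 1, 55.1 in Cnp-/- 1, 5.03 in Cnp-/- 2, 41.9 in 5xFAD 2 and 7.61 in Cnp-/- 5xFAD 1 (log2 interaction -3.22 ± 0.82, edgeR adjusted P = 0.0371). The Cnp-/- libraries lay on either side of the rest. Tshz2, a zinc finger gene, was at 107 CPM in WT 1, 205 and 191 in Cnp-/-, 225 in 5xFAD 2 and 36.1 in Cnp-/- 5xFAD 1 (-3.48 ± 0.51, edgeR adjusted P = 2.93e-08). Tafa1, a secreted protein of neurons, was at 516 CPM in WT 1, 149.8 and 80.5 in Cnp-/-, 145 in 5xFAD 2 and 272 in Cnp-/- 5xFAD 1 (2.97 ± 0.42, edgeR adjusted P = 2.09e-08). Tafa1 was at 52.0 CPM in cluster 9 and 357 CPM outside it. St18, a transcription factor of oligodendrocytes, was at 9.18 CPM in WT 1, 129 and 25.2 in Cnp-/-, 77.1 in 5xFAD 2 and 41.8 in Cnp-/- 5xFAD 1 (-4.22 ± 0.68, edgeR adjusted P = 7.42e-07). The median over 6 oligodendrocyte markers tested was -3.07, against -0.03 over all genes, in a fit that a gene could enter through a single library. St18 was highest in Cnp-/- 1, the library in which the oligodendrocyte markers summed to 610 CPM in members. Of its UMIs, 7 came from 5 members in cluster 9 and 298 from 36 members outside it.

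Last, the genotype effects in Drd2 neurons were set against those in Drd1 neurons of the same libraries. For Cnp loss 0 of 7403 genes differed between the classes (0.0%, edgeR), DESeq2 called 0, and 199 had an unadjusted P below 0.05. For 5xFAD 1 gene differed (0.0135%), while DESeq2 called 0 and 170 had an unadjusted P below 0.05. This was Il1rapl2, at 317, 40.5 and 132 CPM against 257 and 96.7 CPM in Drd1 neurons, with a log2 difference between the classes of -3.01 ± 0.42 (edgeR adjusted P = 0.0396). The fit had 1 residual degree of freedom and took the 3 Drd1 nuclei of Cnp-/- 2. With no term for both genotypes together, the gene did not pass without Cnp-/- 2, without 5xFAD 2 or without Cnp-/- 5xFAD 1.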

How the data were processed

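Per the labels and the study's methods, the authors mapped reads to mm10 by Cell Ranger 6.1.2, took out background RNA by CellBender and set limits on genes and UMIs per nucleus. The deposited values are raw counts of UMIs per gene and nucleus, with the authors' cell type and cluster. Doublet treatment and the counting of introns are not given in the sources used here. Background removal can set low counts to 0, which bears on a rule of 2 UMIs.

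UMIs were summed per library over the Drd2 neurons, over the Drd1 neurons and over other classes, and the library was the replicate. Levels are CPM of the summed profile without TMM scaling, and gene lengths were not corrected for. Sums were tested two-sided by edgeR 4.0.16 (R 4.3.3): filterByExpr, TMM, glmQLFit and glmQLFTest, Benjamini-Hochberg over all genes tested, threshold 0.05. The SE is the log2 difference divided by the root of F. The class comparison took the library as a block, and genotype comparisons took 4 genotype means. The libraries with 0 members have no profile and entered no fit. Shares of nuclei were compared by exact permutation tests that went through all relabellings of the libraries. The calculation was checked on a small example against that of scipy 1.17.1. Alternatives were DESeq2 1.42.0 and its size factors, no filter, other UMI minimums, equal numbers of nuclei (22 per library), thinning to 5000 UMIs, the replicate number as a block, no library block and each library left out. Cluster 9 alone, additive genotype models, models with no term for both genotypes and libraries with members alone were added after seeing the data. Only the class and Cnp comparisons were tried on simulated counts, with known changes and a fixed spread. The simulated libraries did not differ in make-up, so this does not bear on such differences.

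Named are up to 10 genes per direction with the lowest P among those called whose libraries do not overlap (up to 5 where fewer than 3 passed), App, Thy1 and Cnp, and list members that passed or examples of each list. A few genes that this rule names are not reported here. The members, gene lists and comparisons were chosen with earlier results of these data known. Positions are those of GENCODE vM21 for GRCm38.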

Additional observations from a re-analysis of the deposited data

Results flagged for a closer look

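The effect of Cnp loss differed with the 5xFAD background, by the interaction in edgeR, for 16 named genes. In all of them WT, 5xFAD and Cnp-/- 5xFAD were 1 library each. Few of the interaction calls held in cluster 9 alone. Of their UMIs, cluster 9 and the other members gave 0 and 72 for Rspo2, 13 and 324 for Cadps2 and 58 and 642 for Tshz2. The UMIs were more even for others, at 231 and 214 for Gm2164 and 72 and 76 for Calb1. The log2 interaction was -4.22 for St18, -3.69 for Vwc2l, -3.48 for Tshz2, -3.22 for Calb1, -2.37 for Gm2164, -3.21 for Zfp804b, -2.73 for Cadps2 and -2.38 for Adarb2. It was 4.10 for Ndst4, 2.33 for Tmem132d, 2.97 for Tafa1 and 1.80 for Rgs6. Ndst4, Tmem132d, Tafa1 and Rgs6 were each highest in WT 1, at 208, 621, 516 and 364 CPM, with 15.1 to 38.0, 161 to 270.0, 80.5 to 272 and 146 to 255 CPM in the other 4 libraries.

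Some of these rest on few UMIs or on 1 library. The value of -10.7 for Rspo2 is a fitted difference and not a bound, since Cnp-/- 5xFAD 1 had 0 UMIs and WT 1 and Cnp-/- 2 had 1 UMI each. That of -5.63 for Fbn2 rests on 1.84 CPM in WT 1. Eif2s3y, a gene of the Y chromosome, had -1.97, with 53.2 CPM in Cnp-/- 5xFAD 1 against 118 to 191 CPM in the others. In excitatory neurons Eif2s3y was also lowest in Cnp-/- 5xFAD 1, at 33.6 CPM against 89.8 to 169 CPM in the other 7 libraries. AC149090.1 had -1.89, with 863 CPM in WT 1 and 1025 CPM in Cnp-/- 5xFAD 1 against 1711 to 2013 CPM in the others. It differed among libraries in excitatory neurons too, with 216.6 CPM in 5xFAD 1, 305 in WT 2 and 905 in WT 1 against 981 to 2024 CPM in the other 5.

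The effect of 5xFAD was called as different between Drd2 and Drd1 neurons by edgeR for Il1rapl2, by -3.01 on the log2 scale, in a fit with 1 residual degree of freedom that took 3 Drd1 nuclei of Cnp-/- 2. DESeq2 did not call it, and with no term for both genotypes it was not called without Cnp-/- 2, without 5xFAD 2 or without Cnp-/- 5xFAD 1. Shares of Drd2 neurons and of GABAergic neurons with Rgs9 were examined in 12 groups of 4 libraries for a library far from the others, and 0 had one. This does not make the libraries alike, since 3 of them held 0 members.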

How the results depend on the processing

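The 107 calls between Drd2 and Drd1 neurons became 188 with no filter, 67 by DESeq2, 56 with no library block and 63 to 98 with 1 library left out. With at least 3 UMIs there were 38 and in cluster 9 alone 266, both over 4 libraries, since Cnp-/- 2 then held no Drd1 neuron. Of the 107, 66 were called by DESeq2, 32 with at least 3 UMIs and 52 to 82 with 1 library left out, all with the same sign where tested. The calls of Adora2a, Penk, Grik3, Tac1, Adk and Foxp2 held in all 11 other settings, and those of Gabra4, Foxp1, Stard5, Ptprm, Tshz1 and Crhr1 were lost in 4 to 7.

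The genotype calls depended on the setting. The 10 calls for Cnp loss became 2 by DESeq2, 16 with at least 1 UMI of Drd2, 3 in cluster 9 and 6 in the additive model. With 1 library left out, which was fitted only in the additive model, these 6 became 6 to 37 (37 without 5xFAD 2, 36 without Cnp-/- 5xFAD 1). Only A830036E02Rik passed in all 14. The 63 calls for 5xFAD became 35 with no filter, 2 by DESeq2, 29 with at least 3 UMIs, 104 with at least 1, 33 with equal numbers of nuclei, 35 in cluster 9 and 5 in the additive model, and in that model these 5 became 23 to 50 with 1 library left out (23 without Cnp-/- 2, 50 without Cnp-/- 5xFAD 1). The 22 interaction calls became 0 by DESeq2, 11 with at least 3 UMIs, 13 with equal numbers and 3 in cluster 9. The difference between classes had 0 calls for Cnp loss, 9 with no filter, 21 with no term for both genotypes and 0 to 13 with 1 library left out in that model (13 without Cnp-/- 5xFAD 1, 12 without Cnp-/- 2). For 5xFAD it had 1, then 2, 6 and 0 to 11 in the same settings and 0 by DESeq2. Where 1 library is left out, lone libraries are assumed to vary like the others. The cause of these changes was not tested.

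Signs turned in some results. The Cnp difference of the share among neurons ranged from -0.344 to 0.606 percentage points with 1 library left out and was -0.00295 after thinning. That of the share among Drd1 and Drd2 neurons was -6.23 at 1 UMI. The 5xFAD difference among neurons ranged from -0.370 to 0.581 with 1 library left out. For Cnp loss St18 turned to -0.81 without WT 1 and -0.48 without Cnp-/- 1, and Adarb2 to -1.05 in cluster 9 and -0.33 without WT 1. App, near 0 throughout, turned to 0.065 in cluster 9, 0.058 without Cnp-/- 2 and 0.018 without 5xFAD 2 and without Cnp-/- 5xFAD 1. For 5xFAD it turned to -0.039 in cluster 9, -0.032 without WT 1, -0.067 without Cnp-/- 2 and -0.038 without 5xFAD 2, and Nxph1 turned to 0.33 in cluster 9. Interactions turned to 0.58 for Vwc2l and -0.73 for Rgs6 in cluster 9, -0.45 for Thy1 with at least 3 UMIs, and 1.27 for Fbn2 with equal numbers of nuclei.

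The replicate number as a block in the fit of 4 genotype means left no residual degrees of freedom. With a replicate block in the additive model, 10 genes were called for Cnp loss and 15 for 5xFAD. Relabelling shares within replicate numbers (replicate block) gave exact permutation P values of 1.0, 0.833, 0.333 and 0.667, in the order of Cnp loss and 5xFAD among neurons and then among Drd1 and Drd2 neurons. The labels do not pair the numbers, and only Cnp-/- had members under both, so pairing was checked in other neurons of all 8 libraries, added after seeing the data. Deviations of replicate 1 from the genotype mean, on the log2(CPM + 1) scale, correlated across genes between genotypes with r of -0.184 to 0.406 in excitatory neurons and -0.701 to 0.320 in other GABAergic neurons. Of the 6 pairs of genotypes, 3 and 2 were over 0.1. Whether libraries with the same number share a batch cannot be told from these values. The class by genotype differences could not be fitted with at least 3 UMIs, in cluster 9 or, with a term for both genotypes, with a library left out. The interaction could not be fitted with a library left out, and leaving out a library with 0 members changes no fit. Depth was lowest in Cnp-/- 2, with 198728 UMIs in members, where a count of 0 allows up to 15.1 CPM.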

Other observations

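In the members of the 5 libraries, too, the levels of genes of the sex chromosomes went against the female sex stated for the Cnp-/- crosses, with Xist at most 0.810 CPM and the Y-linked gene Uty between 129 and 172 CPM.

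Members with neither Adora2a nor Penk were 18 of the 235 in cluster 9 and 22 of the 117 outside it. Of the 38 members with a Tac1 UMI, 33 also held Adora2a or Penk.

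Of the genes that did not pass for a difference between Drd2 and Drd1 neurons with 5xFAD, Shisa6 was among those with the lowest P (log2 difference -2.01, edgeR adjusted P = 0.952), at 178, 94.7, 60.4, 35.2 and 32.3 CPM in Drd2 neurons of WT 1, Cnp-/- 1, Cnp-/- 2, 5xFAD 2 and Cnp-/- 5xFAD 1 and at 48.5, 137, 132, 109 and 69.8 CPM in Drd1 neurons. For Cnp loss low P values belonged to Slc1a2 (2.14), Slc1a3 (2.60), Rorb (3.17) and St18 (5.45), each with an edgeR adjusted P of 0.537. Slc1a2 and Slc1a3 are genes of astrocytes, whose 6 markers summed to 161 to 330.4 CPM in Drd2 neurons and to 69.8 to 606 CPM in Drd1 neurons.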
